A study of Mus musculus with 9 samples.

Results

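The genes described here are 8 genes of cellular iron control, namely the transferrin receptor gene Tfrc, the ferritin subunit genes Fth1 and Ftl1, the iron exporter gene Slc40a1, the genes Ireb2, Aco1 and Fbxl5 of the iron-sensing switch, and the ferritin turnover gene Ncoa4. They were taken by name from a table of 21959 genes, and each had 1 row. They were chosen by name with their FPKM values and group differences in these same libraries known, the rise of Tfrc among them. Their values are therefore given as a description without a test. RNA was sequenced from a line of murine mesenchymal stromal cells (MSC) of bone marrow, which the labels mark SV40, in 3 groups of 3 libraries. For 24 h the cells shared their culture with peritoneal interstitial fluid (PF) of untreated mice in the control PF group, with PF taken from mice after 3 days of TNBS treatment in the TNBS PF group, or with phosphate-buffered saline in the PBS group. TNBS is a hapten that induces colitis in rodents. All groups carried the same cell line and, per the labels, 10% serum, so the PBS group was not free of serum iron. The labels do not say whether the 3 libraries of a group were separate cultures or separate fluid donors. Every SD and standard error below therefore rests on the spread between libraries, which may be technical.

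Cells take up iron as transferrin bound to the receptor encoded by Tfrc, store it in the ferritin shell made of heavy (Fth1) and light (Ftl1) subunits, and release it through ferroportin, encoded by Slc40a1. A pair of iron regulatory proteins, IRP1 (Aco1, which is a cytosolic aconitase when it carries an iron-sulfur cluster) and IRP2 (Ireb2), bind RNA hairpins called iron-responsive elements when iron is scarce. Bound after the coding sequence of Tfrc they protect the RNA from decay, and bound ahead of the coding sequence of the ferritin and ferroportin RNAs they block translation. FBXL5, an iron-binding F-box protein, marks IRP2 for degradation when iron is plentiful, and NCOA4 carries ferritin to the lysosome for iron release.

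The elements are shown because they set apart the RNA whose amount is known to follow the IRPs from the RNAs whose translation does. The pattern searched on the transcript strand of the GENCODE M21 transcripts was a C, 5 bases, the loop CAGTGN, and 5 bases able to pair with the first 5, counting G with T as a pair. It is printed 5′ to 3′ with 5 further bases on each side, with the loop in capitals. Tfrc held 4 such sites after its coding sequence within 518 bases, on the plus strand of mm10:

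Tfrc chr16:32631220-32631246: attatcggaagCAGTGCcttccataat

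Tfrc chr16:32631599-32631625: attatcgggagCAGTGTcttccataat

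Tfrc chr16:32631664-32631690: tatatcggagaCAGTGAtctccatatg

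Tfrc chr16:32631711-32631737: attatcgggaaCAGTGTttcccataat

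Fth1, Ftl1 and Slc40a1 each held 1 site ahead of the coding sequence, on the plus strand for Fth1 and on the minus strand for the other two:

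Fth1 chr19:9982733-9982759: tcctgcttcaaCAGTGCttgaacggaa

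Ftl1 chr7:45459780-45459806: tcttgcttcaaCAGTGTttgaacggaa

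Slc40a1 chr1:45925466-45925492: aacttcagctaCAGTGTtagctaagtt

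Of all protein-coding genes in the table, 31 of 20783 (0.149%) held the pattern ahead of the coding sequence and 129 of 21500 (0.6%) after it. No site of this pattern was found in the annotated transcripts of Ireb2, Aco1, Fbxl5 and Ncoa4. A match is a description of letters and not evidence of binding in these cells.

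The depth was inferred from the FPKM values. It was 17.9 to 20.3 M assigned fragments in PBS, 18.6 to 21.5 M in control PF and 22.9 to 25.6 M in TNBS PF. The TNBS PF libraries were thus the deepest. Values are FPKM, fragments scaled to exon length and to the assigned fragments of the library, and thus relative to the other RNA of a library. Across 10537 genes, Pearson correlations between libraries were 0.996 to 0.998 within groups and 0.994 to 0.996 between groups. All 11 stromal markers, among them Itgb1, Thy1 and Pdgfrb, had a mean of at least 1 FPKM, and the leukocyte gene Ptprc had a mean of 0.00034 FPKM.

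Tfrc (ENSMUSG00000022797, mm10 chromosome 16, 32608920 to 32632794, plus strand) had 21.7, 22.2 and 22.3 FPKM in PBS 1 to 3. It had 27.4, 26.4 and 26.5 FPKM in control PF 1 to 3, and 46.0, 48.6 and 46.5 FPKM in TNBS PF 1 to 3. All control PF values lay above all PBS values and all TNBS PF values above both. The group means were 22.1 ± 0.337, 26.7 ± 0.555 and 47.1 ± 1.39 FPKM in PBS, control PF and TNBS PF (SD, n = 3 each), from 7673, 9916 and 21439 fragments in all. The level in TNBS PF was 1.76 times that in control PF and 2.13 times that in PBS, and the level in control PF was 1.21 times that in PBS. The step from control PF to TNBS PF was 20.3 FPKM and the step from PBS to control PF 4.67 FPKM.

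On the log2(FPKM + 1) scale these differences were 0.79, 1.06 and 0.27, each with a standard error of 0.0332. Standard errors come from the fit over all genes. It shares the spread of a gene over the 3 groups and draws it toward that of genes of like level. By the size of this log2 fold change Tfrc stood first of 10537 genes among rises in TNBS PF against PBS, at rank 2 in TNBS PF against control PF and at rank 90 in control PF against PBS. These ranks hold for genes above the filter and for this scale, which understates the changes of low genes. Tfrc was chosen with its rise known, so the ranks support nothing. Over 16 alternative settings the log2 fold changes of Tfrc ranged from 0.77 to 0.82, from 1.03 to 1.09 and from 0.25 to 0.28. Some of these settings, such as leaving out a library of the group not compared, cannot change the value. In the authors' deposited table the log2 fold changes of Tfrc were 0.83, 1.11 and 0.28, and the gene was called up in TNBS PF against PBS and not called in the other two comparisons. In TNBS PF against PBS the authors' deposited table holds 22 calls up and 66 down. The smallest absolute log2 fold change among the calls of the authors' deposited table was 1.00, 1.00 and 1.02 in TNBS PF against control PF, TNBS PF against PBS and control PF against PBS. The 3 comparisons share libraries pairwise and are not independent of each other.

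**Figure D1:**
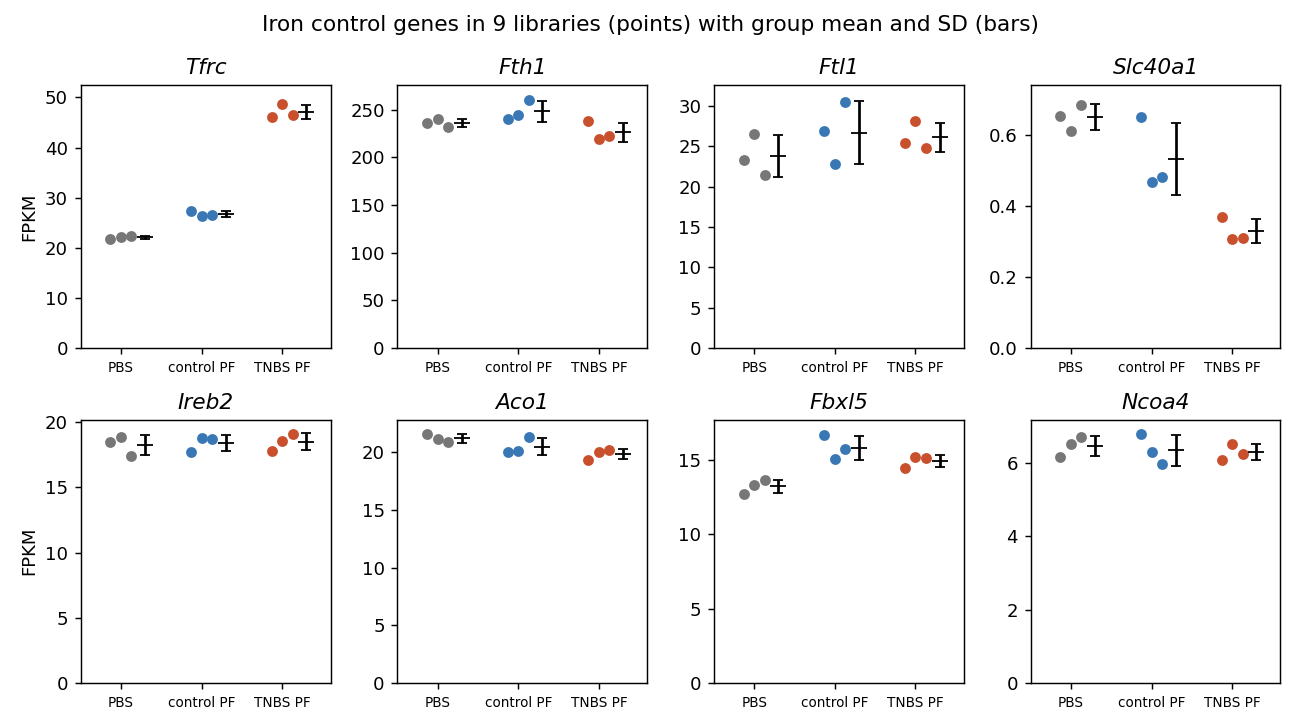
FPKM of the 8 iron control genes in each library (points) by group, with the group mean and SD (bars, n = 3); every axis starts at 0. Tfrc lies at 46.0 to 48.6 FPKM in TNBS PF, above all other libraries, while Slc40a1 lies lowest in TNBS PF and Ireb2 stays between 17.4 and 19.1 FPKM.

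The ferritin genes code for the iron store. Fth1, the heavy subunit with the enzyme activity that oxidises iron (ENSMUSG00000024661, chromosome 19, 9980598 to 9985098, plus strand), had the highest FPKM of the 8 genes. It had 235.8, 240.1 and 231.4 FPKM in PBS, 240.0, 243.9 and 260.5 FPKM in control PF, and 237.8, 218.9 and 222.1 FPKM in TNBS PF. The TNBS PF values lay below those of control PF and overlapped those of PBS. Means were 235.8 ± 4.39, 248.1 ± 10.9 and 226.3 ± 10.1 FPKM. The log2 fold change was −0.13 (SE 0.0381) in TNBS PF against control PF, −0.06 in TNBS PF against PBS and 0.07 in control PF against PBS. Over the 16 alternatives the first of these ranged from −0.17 to −0.10.

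Ftl1, the light subunit that helps form the iron core (ENSMUSG00000050708, chromosome 7, 45457944 to 45459884, minus strand), had 23.3, 26.6 and 21.4 FPKM in PBS, 26.9, 22.7 and 30.5 FPKM in control PF and 25.4, 28.1 and 24.7 FPKM in TNBS PF. The 3 groups overlapped, and the standard error of 0.0912 on the log2 scale was over that of any other member. Its log2 fold change was −0.03 in TNBS PF against control PF, with values from −0.13 to 0.07 over alternatives and so of either sign. The table also lists the copy Ftl1-ps1, at a mean of 0.413 FPKM over the 9 libraries, and reads that fit more than 1 copy could have been split or dropped, so the level of Ftl1 is uncertain. The Fth1 length of 3469 bases is the union of the exons of all its transcripts, so its FPKM depends on how reads fall on them. The ferritin-like genes Fthl17a to Fthl17f were listed at 0 in every library.

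Within a library, the ratio of Tfrc to Fth1 does not depend on a scaling factor common to all its genes. Quantile normalization is no such factor. It moved the Fth1 log2 fold change in TNBS PF against PBS from −0.06 to −0.13. Per length, Tfrc stood at 0.092, 0.0924 and 0.0966 of Fth1 in PBS, at 0.114, 0.108 and 0.102 in control PF, and at 0.194, 0.222 and 0.209 in TNBS PF. The 3 groups did not overlap, with means of 0.0937 ± 0.00252, 0.108 ± 0.00628 and 0.208 ± 0.0144 (SD, n = 3 each). The ratio of Tfrc to Ireb2, the gene of IRP2, was 1.21 ± 0.0618 in PBS, 1.45 ± 0.081 in control PF and 2.55 ± 0.0976 in TNBS PF. Light to heavy ferritin, Ftl1 to Fth1, stood at 0.101 ± 0.00912, 0.107 ± 0.0125 and 0.116 ± 0.0112, with groups that overlapped. This last ratio carries the uncertainty in the level of Ftl1.

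**Figure D2:**
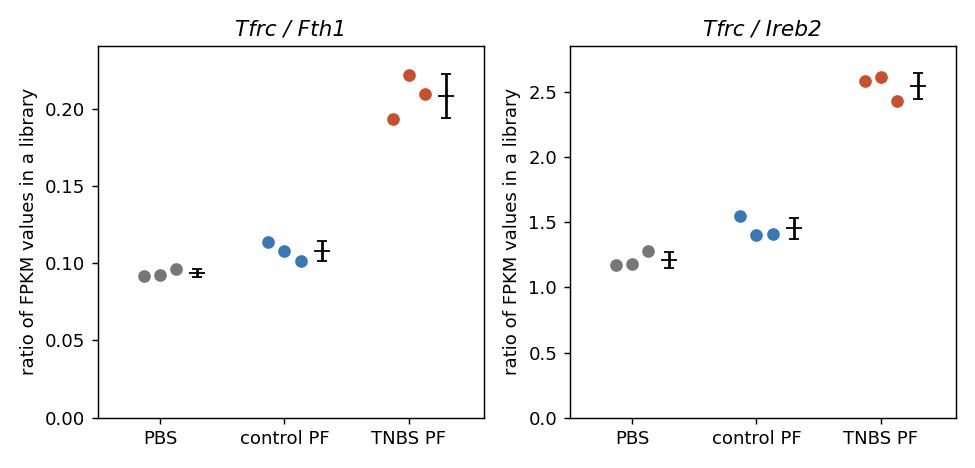
Ratio of Tfrc to Fth1 (left) and of Tfrc to Ireb2 (right), from FPKM values of the same library, by group; points are libraries, bars the mean and SD (n = 3), and the axes start at 0. Both ratios are highest in the 3 TNBS PF libraries, at 0.194 to 0.222 and 2.43 to 2.62.

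Slc40a1, encoding ferroportin, the iron exporter of animal cells (ENSMUSG00000025993, chromosome 1, 45908068 to 45926523, minus strand), was the rarest of the 8 RNAs. It had 0.653, 0.612 and 0.683 FPKM in PBS, 0.65, 0.466 and 0.48 FPKM in control PF and 0.367, 0.308 and 0.31 FPKM in TNBS PF. The TNBS PF values lay below all other libraries, while control PF 1 lay within the range of PBS. These values rest on 105, 99 and 125 fragments in PBS, 116, 78 and 93 in control PF and 83, 71 and 64 in TNBS PF. The mean in TNBS PF was 0.618 times that in control PF and 0.506 times that in PBS. On the log2(FPKM + 1) scale the differences were −0.20 and −0.31, and with a pseudocount of 0.1 they were −0.55 and −0.81, since the added 1 exceeds the values themselves. Slc40a1 stayed under the filter of 1 FPKM in 3 libraries, so these are plain differences of mean log values.

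The genes of the iron-sensing switch lay close together in level. Ireb2 (ENSMUSG00000032293, chromosome 9, 54863789 to 54912530, plus strand) ranged from 17.4 to 19.1 FPKM over the 9 libraries, with group means of 18.3 ± 0.75, 18.4 ± 0.624 and 18.5 ± 0.657 FPKM in PBS, control PF and TNBS PF. All 3 groups overlapped, and the coefficient of variation over the 9 libraries was 3.25%. Aco1 (ENSMUSG00000028405, chromosome 4, 40143081 to 40198338, plus strand) had group means of 21.2 ± 0.386, 20.5 ± 0.729 and 19.8 ± 0.463 FPKM. Its TNBS PF values, 19.3 to 20.2 FPKM, lay below its PBS values, 20.9 to 21.6 FPKM. The log2 fold change between them was −0.09 (SE 0.0367).

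Fbxl5 (ENSMUSG00000039753, chromosome 5, 43744615 to 43821638, minus strand) had 12.7, 13.3 and 13.6 FPKM in PBS, 16.7, 15.1 and 15.7 FPKM in control PF and 14.4, 15.2 and 15.1 FPKM in TNBS PF. Both fluid groups lay above PBS without overlap, and they overlapped each other. The log2 fold change was 0.24 (SE 0.0442) in control PF against PBS, 0.16 in TNBS PF against PBS and −0.08 in TNBS PF against control PF. Over alternatives the second ranged from 0.14 to 0.18. Tfrc and Fbxl5 both lay above PBS in both fluids, but Tfrc was highest in TNBS PF and Fbxl5 had its highest mean in control PF. The ratio of Fbxl5 to Ireb2 was 0.726 ± 0.0496, 0.862 ± 0.0726 and 0.807 ± 0.0139 in PBS, control PF and TNBS PF. Ncoa4 (ENSMUSG00000056234, chromosome 14, 32159865 to 32179855, plus strand) ranged from 5.97 to 6.80 FPKM, with groups that overlapped in all 3 comparisons and log2 fold changes between −0.04 and −0.01.

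In PBS the order of mean FPKM per length was Fth1, Ftl1, Tfrc, Aco1, Ireb2, Fbxl5, Ncoa4 and Slc40a1. Ftl1 and Tfrc did not differ there beyond their spread (23.8 ± 2.59 and 22.1 ± 0.337 FPKM). The Tfrc libraries, from 21.7 FPKM, lay just above those of Aco1, up to 21.6 FPKM. In control PF Tfrc and Ftl1 again did not differ beyond their spread (26.7 ± 0.555 and 26.7 ± 3.87 FPKM). In TNBS PF Tfrc held the place behind Fth1, with its lowest library at 46.0 FPKM against 28.1 FPKM in the highest Ftl1 library. The place of Ftl1 in each group is that of its FPKM, and its level is uncertain, as given above. The order of the other genes was the same in all 3 groups.

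**Figure D3:**
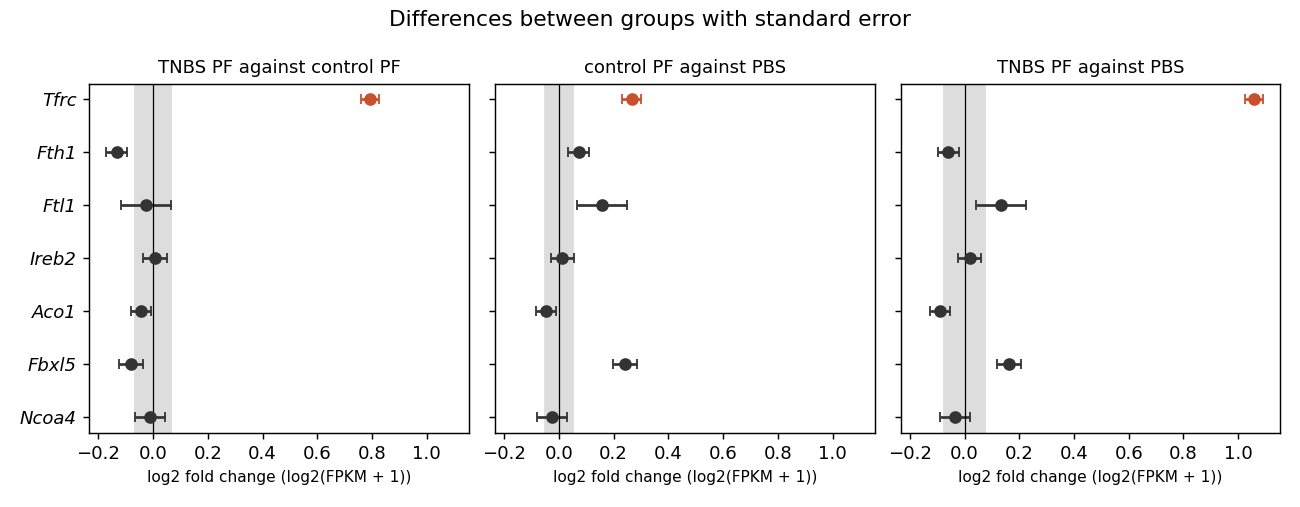
Log2 fold change of the 7 genes above the filter with its standard error, from the fit over all genes, in the 3 comparisons; the grey band spans plus and minus the median absolute log2 fold change of all 10537 genes (0.07, 0.05 and 0.08). Tfrc is at 0.79, 0.27 and 1.06, while Ireb2 and Ncoa4 are inside the band in every panel.

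Of the 8 genes, 7 passed the filter on low values. Groups that do not overlap were found for 2, 2 and 3 of the 7 genes in TNBS PF against control PF, control PF against PBS and TNBS PF against PBS, beside 31.8%, 18.6% and 35.3% of all genes. As the genes were chosen with these results known, nothing is read from these counts.

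Other genes of iron handling were taken from 7 lists by role. Of 90 with a row, 71 passed the filter and were tested with limma in the same fit, with Benjamini-Hochberg adjustment over all genes and a threshold of an adjusted p of 0.05. The lists were drawn up with earlier results of these data known. The shares of called genes below are therefore a description and no evidence of enrichment. In TNBS PF against control PF, 3 rose and 7 fell of the 71 (14.1%, against 10.6% of all genes, 5.15% higher and 5.45% lower), with a median log2 fold change of −0.01, against −0.01 for all genes. The share of all genes rests on 1117 genes, which became 860, 733 or 708 when control PF 1, 2 or 3 was left out. When TNBS PF 1, 2 or 3 was left out the number was 691, 661 or 676. Steap4, a metalloreductase gene whose product reduces ferric iron, fell from 81.2 ± 1.2 to 52.6 ± 3.37 FPKM (−0.62, adjusted p = 3.11e-06). Cp, encoding ceruloplasmin, a ferroxidase that works with ferroportin, fell from 40.6 ± 1.69 to 32.1 ± 0.714 FPKM (−0.33, adjusted p = 0.000385). These genes lie on the uptake and export sides, where 2 of 11 and 2 of 3 tested genes fell. The second gene of each list, Slc39a14 and Heph, lost its call when any one fluid library was left out, and Heph lies at the filter. Of 10 export genes with a row only 3 were tested. In both lists 0 rose by limma, also at an unadjusted p under 0.05, and 0 by limma voom on recovered fragments.

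Hspa9, the mitochondrial chaperone that also serves iron-sulfur cluster assembly, rose from 187.5 ± 2.38 to 246.9 ± 4.84 FPKM (0.40, adjusted p = 9.56e-06), the one gene called of 26 in that list. Among 9 regulators of the IRPs and of Tfrc RNA, Myc, a transcription factor known to activate Tfrc, rose from 32.3 ± 0.778 to 40.0 ± 0.759 FPKM (0.30, adjusted p = 0.000197). Hif1a, encoding the hypoxia factor that also acts on Tfrc, fell from 119.8 ± 1.03 to 108.9 ± 4.07 FPKM (−0.14, adjusted p = 0.0151). In the haem list 1 of 17 rose, Cpox (0.22, adjusted p = 0.0187), an enzyme of haem synthesis, and 2 fell, Hmox2 (−0.17, adjusted p = 0.0238) and Urod (−0.16, adjusted p = 0.0432). Slc39a14, a metal importer (−0.17, adjusted p = 0.0293), and the ferroxidase gene Heph (−0.23, adjusted p = 0.0432) fell as well. Heph averaged 1.22 ± 0.0688 (control PF), 1.13 ± 0.0754 (PBS) and 0.89 ± 0.0517 FPKM (TNBS PF). Only its TNBS PF mean lay under the filter value of 1 FPKM. It thus entered the test through the groups in which it was higher, and its call is given as a description.

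The calls of Steap4, Cp, Hspa9 and Myc held in all 16 alternatives. Those of Slc39a14, Heph, Hif1a, Urod, Cpox and Hmox2 did not, with adjusted p ranging up to 0.115, 0.143, 0.0735, 0.172, 0.0832 and 0.1. Hif1a lost its call without control PF 3, TNBS PF 2 or TNBS PF 3, and Cpox without control PF 3, TNBS PF 1 or TNBS PF 3. Slc39a14 and Heph lost theirs when any one of the 6 fluid libraries was left out, and Heph also without PBS 3. Heph lost it under quantile normalization too, and Slc39a14, Cpox and Hmox2 without the filter on low values. Urod lost its call when control PF 1, 2 or 3, TNBS PF 2 or 3, or PBS 3 was left out, and also under median-ratio scaling, under quantile normalization and without the filter. Hmox2 lost its call when control PF 1, 2 or 3 or TNBS PF 1 or 2 was left out. The 10 calls became 6, 6, 4, 5 and 5 without control PF 1, 2 and 3 and TNBS PF 2 and 3, and 6 without the filter. No storage chaperone (of 3 tested) was past the threshold by limma or by limma voom, and 1 had an unadjusted p under 0.05. It was Pcbp1, an iron chaperone for ferritin (0.09, adjusted p = 0.0599, 0.0366 to 0.224 over alternatives).

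In control PF against PBS, 4 of the 71 rose and 0 fell (5.63%, against 2.15% of all genes, 1.02% higher and 1.14% lower), and the median log2 fold change was 0.03, against 0.001 for all genes. The share of all genes rests on 227 genes, which became 115, 130 and 124 without control PF 1, 2 and 3. Without PBS 1, 2 and 3 the number was 178, 311 and 142. The Steap family genes Steap1 (47.2 ± 0.611 to 59.0 ± 2.04 FPKM, adjusted p = 0.00043) and Steap2 (31.4 ± 0.369 to 36.2 ± 0.77 FPKM, adjusted p = 0.00481) rose. So did Cp (32.8 ± 1.8 to 40.6 ± 1.69 FPKM, adjusted p = 0.0031) and Hif1a (96.8 ± 2.3 to 119.8 ± 1.03 FPKM, adjusted p = 0.00043). All 4 calls held in the 16 alternatives. Of the 71, 4 were lower at an unadjusted p under 0.05, and 0 were called lower by limma voom. No gene was called by limma or limma voom in the mitochondrial list (smallest p in Ciao2a, log2 fold change 0.10, adjusted p = 0.199) or the haem list (Hmox1, the inducible haem oxygenase, log2 fold change −0.13, adjusted p = 0.225), where 3 and 5 genes had an unadjusted p under 0.05. Pcbp1 (0.03, adjusted p = 0.685) did not pass either.

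In TNBS PF against PBS, 9 of the 71 rose and 3 fell (16.9%, against 16.7% of all genes, 7.8% higher and 8.88% lower), with a median log2 fold change of 0.004, against −0.01 for all genes. The share of all genes rests on 1758 genes, which became 1189, 1185 or 1148 when TNBS PF 1, 2 or 3 was left out. Without PBS 1, 2 or 3 the number was 1258, 1620 or 1421. Steap1 (0.35, adjusted p = 2.02e-05) rose and Steap4 (−0.56, adjusted p = 4.23e-06) fell in the list in which 2 rose and 3 fell of 11. The others that fell were Steap3, known as the endosomal reductase of red cell precursors (−0.31, adjusted p = 0.0309), and Mcoln1, a lysosomal cation channel (−0.26, adjusted p = 0.0137). Hspa9 (0.36, adjusted p = 9.4e-06), Cpox (0.29, adjusted p = 0.00228), Myc (0.25, adjusted p = 0.000442) and Hif1a (0.17, adjusted p = 0.00322) rose. So did Pcbp1 (0.12, adjusted p = 0.0118), Ciao2a, of cytosolic iron-sulfur assembly (0.14, adjusted p = 0.0177), and the mitochondrial iron importer gene Slc25a28 (0.15, adjusted p = 0.0321).

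Without single libraries 4 of these calls were lost. They were Steap3 without TNBS PF 2, TNBS PF 3, PBS 2 or PBS 3 (adjusted p up to 0.114 over alternatives), Mcoln1 without TNBS PF 3 or PBS 1 (up to 0.0572), Ciao2a without TNBS PF 2 or PBS 3 (up to 0.0816) and Slc25a28 when any one of the 6 libraries was left out (up to 0.13). Steap3 also lost its call under quantile normalization and without the filter, and Slc25a28 with limma voom. Pcbp1 lost its call under quantile normalization (adjusted p = 0.0794, 0.0075 to 0.0794 over alternatives). Heph (−0.17, adjusted p = 0.0962) did not pass. Hamp and Hamp2, for the hormone hepcidin that removes ferroportin from the cell surface, were listed at 0 in all libraries, and Tfr2, the second transferrin receptor, had at most 0.478 FPKM.

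**Figure D4:**
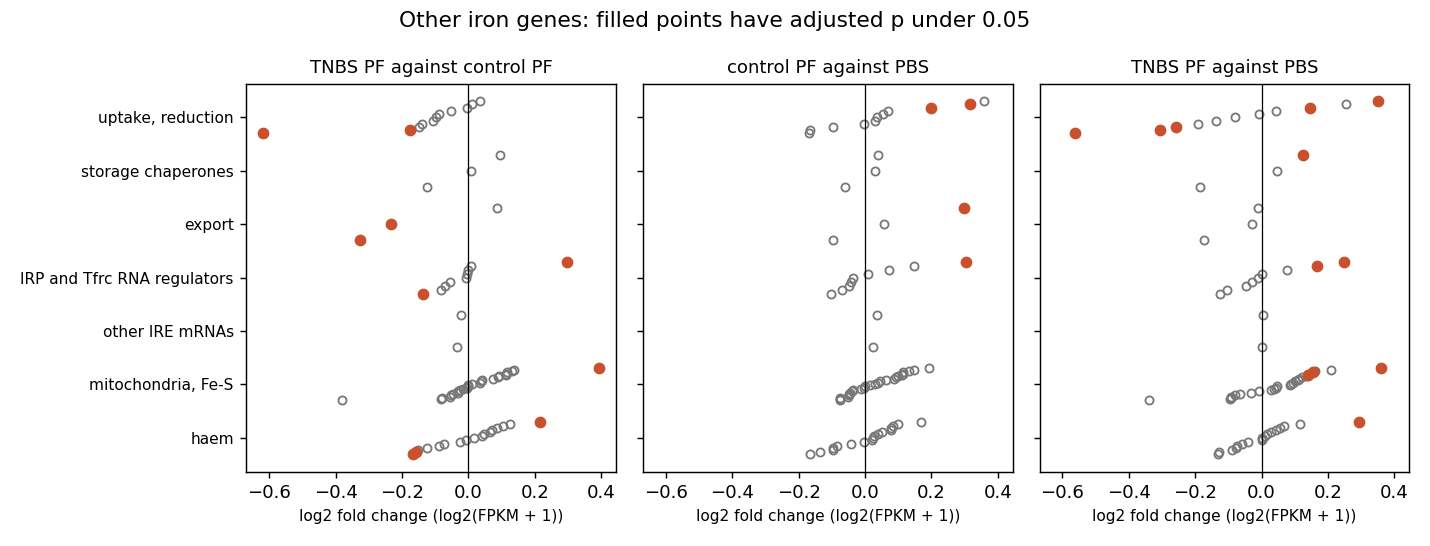
Log2 fold change of the 71 other tested iron genes, one point each, by role (rows) in the 3 comparisons; filled points have an adjusted p under 0.05 by limma. Filled points number 10, 4 and 12, and the lowest in the left and right panels is Steap4 at −0.62 and −0.56.

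The genes nearest to Tfrc in pattern were found by the root mean square distance between log2(FPKM + 1) values centred on their mean over the 9 libraries, among 10323 genes with an established symbol. Serpinb2, a protease inhibitor gene, was nearest (distance 0.16), followed by Tigit (0.17), the cysteine synthesis gene Cth (0.18), Ankrd1 (0.18) and Npr3 (0.19). The root mean square of Tfrc itself about its mean was 0.45. Serpinb2 had 5.18 ± 0.395, 5.98 ± 0.585 and 9.07 ± 0.339 FPKM in PBS, control PF and TNBS PF, and Cth had 13.7 ± 1.11, 16.2 ± 0.475 and 23.1 ± 2.33 FPKM. The log2 fold changes of the 5 in TNBS PF against PBS were 0.63 to 0.80. The 5 were picked for this likeness over the same libraries, so the order of their groups follows from the choice.

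**Figure D5:**
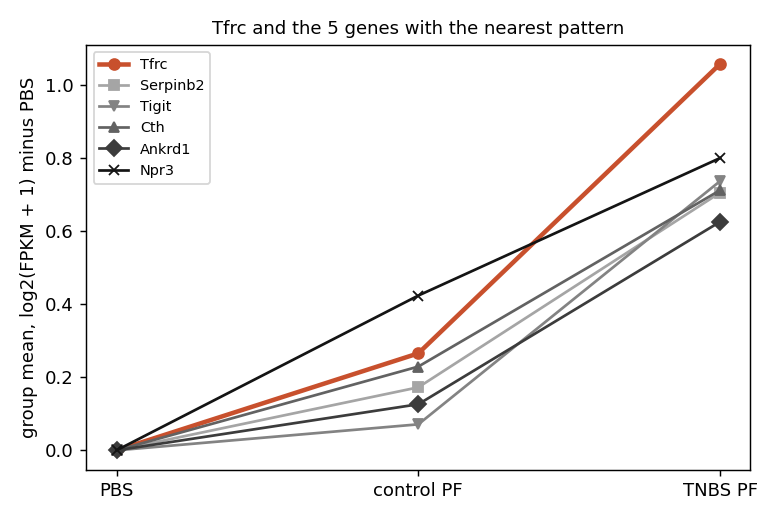
Group mean of log2(FPKM + 1) minus that of PBS for Tfrc and the 5 genes nearest to it in pattern over 9 libraries. Tfrc ends at 1.06 in TNBS PF and the other 5 at 0.63 to 0.80.

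Markers of cells that peritoneal fluid could carry were set beside these values. In bulk RNA fewer cells of a type and less RNA per cell cannot be told apart. Of the markers of erythroid cells, which are rich in transferrin receptor, 11 had a row, and 0 reached a mean of 1 FPKM. Hba-a2, Hbb-bs, Hbb-bt and Slc4a1 were at 0 throughout, and the list summed to 0.34 to 0.861 FPKM in PBS, 0.782 to 0.806 in control PF and 0.349 to 0.603 in TNBS PF. The 12 macrophage and monocyte markers summed to 14.5 to 15.9, 15.3 to 17.4 and 16.3 to 18.2 FPKM in PBS, control PF and TNBS PF. Of that sum Cd14 made up 86.0%, Marco and Timd4 were at 0, and the macrophage gene Adgre1 had a mean of 0.0031 FPKM. The neutrophil, lymphocyte and endothelial lists summed to less than 0.6 FPKM in every library.

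The 14 mesothelial markers summed to 47.7 to 48.6 FPKM in PBS, 46.0 to 47.7 in control PF and 52.6 to 57.9 in TNBS PF. Of them 4 had a mean of at least 1 FPKM, Msln made up 76.8% of the sum, and Muc16 and Nkain4 were at 0. In TNBS PF against control PF, 3 of these 4 rose by limma, beside 5.15% of all genes. Msln rose by 0.24 on the log2 scale (adjusted p = 0.0043), a call kept in all 16 alternatives. Krt18 rose by 0.28 (adjusted p = 0.0497, past the threshold in 4 alternatives), and lost its call when any library other than control PF 3 was left out. Krt19 rose by 0.59 (adjusted p = 0.0154, past the threshold in 11 alternatives), and lost its call without control PF 2 or 3 or TNBS PF 1 or 2. Slpi lay lower in TNBS PF, at 4.44 to 5.55 FPKM against 5.79 to 6.45 in control PF (−0.25, adjusted p = 0.12, not past the threshold). In TNBS PF against PBS the same 3 rose by limma, beside 7.8% of all genes. Msln rose there by 0.14 (adjusted p = 0.0459), past the threshold in only 6 alternatives. Krt18 (0.32, adjusted p = 0.0204) and Krt19 (0.50, adjusted p = 0.0258) each passed in 11. In control PF against PBS, 0 of the 4 were called, with Msln at −0.10 (adjusted p = 0.31).

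The 11 stromal markers summed to 1552 to 1619 FPKM in PBS, 1530.1 to 1550.5 in control PF and 1459 to 1481 in TNBS PF, with members that went both ways. In TNBS PF against control PF, 2 of the 11 rose and 4 fell by limma, beside 5.15% and 5.45% of all genes. Cd44 (0.21, adjusted p = 0.000456) and Vcam1 (0.12, adjusted p = 0.0305) rose. Pdgfra (−0.38, adjusted p = 0.000235), Pdgfrb (−0.39, adjusted p = 0.000104), Ly6a (−0.32, adjusted p = 0.000219) and Col1a2 (−0.19, adjusted p = 0.00487) fell. Of these calls that of Vcam1 was lost without control PF 1, 2 or 3 or TNBS PF 1 or 3 (adjusted p up to 0.128), and the others held in all 16 alternatives. In control PF against PBS, 1 of the 11 rose and 1 fell by limma, beside 1.02% and 1.14% of all genes. The 1 that fell was Cd44 (−0.21, adjusted p = 0.00189). In TNBS PF against PBS, 2 rose and 5 fell, beside 7.8% and 8.88% of all genes, and Cd44 did not pass (−0.001, adjusted p = 0.98). The part of any of the marker lists, from erythroid to stromal, in the Tfrc result was not tested.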

How the data were processed

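RNA of 9 libraries was sequenced by the authors after Trizol isolation with an input of 3 µg, per the labels' protocols. Reads were trimmed with cutadapt 1.15 and the build was mm10, per the submitters' processing notes. For the aligner and the counting program, the sources used here give no name. The authors deposited FPKM per library, per the file headers, with group means that were not used. The authors' log2 fold change of each comparison is quoted only where named as theirs, and the authors' p-value columns, deposited beside it, come from a test that is not stated.

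Fragments were recovered from FPKM, the exon length in GENCODE M21 and a total of assigned fragments per library. That total, the depth given above, was inferred from the FPKM values. It was set so that genes with few fragments come out at whole numbers. Of values under 1000 fragments 97.2 to 97.3% were whole within 0.01. Genes with at least 1 FPKM in at least 3 libraries (10537) were fitted as log2(FPKM + 1) with limma 3.58.1 in R 4.3.3, with a mean-variance trend, all libraries in 1 fit and Benjamini-Hochberg adjustment at 0.05. The fold change understates that of low genes. The procedure was tested on simulated data. The members, lists and the rule for naming genes (up to 4 called genes per list by size, otherwise the gene of smallest p, and the 5 genes nearest to Tfrc) were chosen with earlier results of these data known. A gene that the rule selects is not reported here. Ciao2a, Slc25a28 and others follow from that rule, and Hamp, Tfr2 and the ferritin-like genes were named after their values were seen. Same-numbered libraries share nothing stated in the labels.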

Additional observations from a re-analysis of the deposited data

How the results depend on the processing

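Of 363 recomputed differences of the 8 genes, 358 moved by less than the spread between libraries and 5 by more. The 358 include settings that could not change the difference of a gene above the filter. These were dropping the filter, fitting only the groups compared, the replicate block and leaving out a library of the group not compared. The count therefore overstates how stable the values were. The 5 were Tfrc with limma voom on recovered fragments (1.09) and Fth1 under quantile normalization (−0.13), both in TNBS PF against PBS, and Slc40a1 with a pseudocount of 0.1 in its 3 comparisons. The values of Ftl1, Ireb2 and Ncoa4 took either sign over alternatives in TNBS PF against control PF. Genes past the threshold in control PF against PBS numbered 103 without the filter and 374 with voom, and 115 to 311 leaving out each library in turn. The numbers leaving out a library were 661 to 1255 in TNBS PF against control PF and 1148 to 1735 in TNBS PF against PBS. The other iron genes called in TNBS PF against control PF numbered 6 without the filter and 4 to 11 leaving out a library, and the cause was not tested. Median-ratio scaling raised the share of higher calls among all genes from 48.6 to 60.6% in TNBS PF against control PF and from 46.8 to 57.9% against PBS, while it moved the median of all genes by at most 0.02. Among the other iron genes it raised the share of higher calls from 30 to 45.5% in TNBS PF against control PF. Under voom that share fell from 75 to 58.8% in TNBS PF against PBS. With the replicate number as a block 906, 169 and 1537 genes and 9, 5 and 13 other iron genes were called. Among the named iron genes the block ended the calls of Slc39a14 (adjusted p = 0.0576) and Heph (0.0722) in TNBS PF against control PF and of Slc25a28 (0.0549) in TNBS PF against PBS. Deviations of same-numbered libraries correlated at −0.0978 to 0.0746 and those of differently numbered libraries at −0.075 to 0.0776. With 3 libraries a group these values cannot tell whether same-numbered libraries share a culture or donor. The 64 to 125 fragments per library limit what can be said of Slc40a1.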
